A study of Mus musculus with 6 samples.

Results

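The respiratory chain genes described here are the protein-coding genes whose symbols begin with Ndufa, Ndufb, Ndufc, Ndufs, Ndufv, Sdha to Sdhd, Uqcr, Cox4i, Cox5, Cox6, Cox7, Cox8 or Atp5 in the nuclear genome, or with mt-Nd, mt-Co, mt-Atp or mt-Cytb in the mitochondrial genome. They number 111 of the 55471 identifiers in the table, 98 of them nuclear and 13 mitochondrial. Polyadenylated RNA of endosteal mesenchymal stromal cells, found along the inner face of bone, was sequenced from C57BL/6J mice. The libraries labelled Bap1 cKO (n = 3) came from Prx1-cre;Bap1fl/fl mice, in which the Prx1 promoter drives Cre recombinase in limb mesenchyme, and those labelled Bap1 WT (n = 3) from Bap1fl/fl mice. Both groups therefore carry the floxed Bap1 allele and differ by the transgene, and the age of the mice was not given in the labels. The comparison asks what loss of the histone H2A deubiquitinase Bap1 does to the transcriptome of these cells. Nothing in the labels ties the 3 libraries of a group to different animals, and the p-values below therefore reflect the spread among libraries, which may be technical.

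The respiratory chain passes electrons from NADH (complex I) and succinate (complex II) through ubiquinone to complex III, then by cytochrome c to complex IV, and the proton gradient this builds drives ATP synthesis by complex V. Complexes I, III, IV and V are built from subunits of both genomes, whereas complex II is wholly nuclear. The mitochondrial transcripts are cut from long polycistronic precursors, and several of the genes overlap or have nearly identical copies in the nuclear genome.

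The sequences below show why 2 of the mitochondrial values have to be read with care. The first is mt-Atp8 (chrM:7766-7969, GRCm38, plus strand), with the bases that it shares with mt-Atp6 in capitals. These shared bases number 43 of the 204 bases of the gene. The next pair is a stretch of mt-Co1 (chrM:6363-6423, plus strand) and the start of its nuclear copy Gm29216 (chr1:24616155-24616197, minus strand), an unprocessed pseudogene, with the single differing base of the aligned stretch in capitals. Counted from the 5′ end of mt-Co1 the difference is A1066T, and 482 of 483 aligned bases are identical. The first bases of the copy, before the aligned stretch, do not match.
mt-Atp8: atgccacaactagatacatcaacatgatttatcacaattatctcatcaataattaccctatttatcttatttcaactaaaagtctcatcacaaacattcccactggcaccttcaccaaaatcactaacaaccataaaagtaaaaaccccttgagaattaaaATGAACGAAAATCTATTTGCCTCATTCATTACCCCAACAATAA
mt-Co1: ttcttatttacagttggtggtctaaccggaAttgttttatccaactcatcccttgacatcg
Gm29216: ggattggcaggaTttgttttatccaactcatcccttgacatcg

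Depth, estimated from the steps between low values, was 13 to 22.05 megafragments in the cKO libraries and 13.05 to 14.8 megafragments in the WT libraries. On the first principal component, which held 86.7% of the variance, cKO replicate 3 lay at -53.0, nearer the WT libraries (69.8 to 72.0) than cKO replicates 1 and 2 (-79.8 and -80.3). Bap1 itself stood at 28.3, 25.2 and 23.0 RPKM (reads per kilobase of transcript, scaled to the depth of the library) in cKO and 22.8, 22.7 and 24.01 RPKM in WT, a log2 difference of 0.13 ± 0.10 (SE, limma, adjusted p = 0.29). This RPKM covers the whole gene and would not reveal a deletion of the floxed exons, so it does not check the labels. Cell type markers differed between the groups. The 9 stromal marker genes summed to 111 to 211 RPKM in cKO and to 2157 to 2290 RPKM in WT. Of these 9 genes, 6 were lower and 1 higher. The kidney tubule markers, nearly all of it Pax8, summed to 126 to 247 RPKM in cKO and to 7.70 to 9.81 RPKM in WT. Muscle markers summed to 3.03 to 13.9 RPKM in cKO and 9.64 to 10.3 RPKM in WT, and haematopoietic, endothelial, erythroid and brown adipocyte lists stayed under 3 RPKM in all libraries, with Cd3e, Hba-a2 and Ucp1 at 0. Their part in the differences below was not tested, and in bulk RNA fewer cells of a type and less RNA per cell cannot be told apart.

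Of the 98 nuclear members, 89 averaged 1 RPKM or more across the 6 libraries and were tested, as were all 13 mitochondrial ones. Among the nuclear members 34 were higher and 21 lower in cKO (limma on log2(RPKM + 1), Benjamini-Hochberg adjusted p under 0.05 over 12223 genes), while 34 did not pass. Over all genes tested, 34.7% were higher and 26.5% lower, so the nuclear members were called about as often as other genes. Scaling by TMM (a trimmed mean of log ratios) gave 25 higher and 27 lower members, where 30.6% and 30.1% of all genes were called. Median-of-ratios scaling gave 22 and 28, where 29.6% and 30.8% of all genes were called. In what follows ± after a log2 difference is its SE, and adjusted p values are those of limma with Benjamini-Hochberg adjustment. The median log2 difference of the nuclear members was 0.11, against 0.09 over all genes tested. Their differences were small: the median absolute log2 difference was 0.28, against 0.53 over all genes and 0.44 over nuclear genes of mean at least 50 RPKM, a level that 76 of the members reached (median 0.27). An absolute log2 difference of at least 1 was seen in 6 members, where it was seen in 26.5% of all genes tested.

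No mitochondrial gene was called higher and 4 were called lower in cKO, namely mt-Nd1, mt-Nd2, mt-Nd3 and mt-Nd6. The median was -0.23, and 12 of the 13 log2 differences were negative, with mt-Nd4l the exception. The sign of mt-Cytb turned positive under quantile normalization (0.03). So did that of mt-Nd4 without cKO replicate 2, of mt-Nd5 without cKO replicate 2 or WT replicate 2, and of mt-Co3 without cKO replicate 1 or WT replicate 2. Values of the 2 groups did not overlap in 7 mitochondrial genes with cKO below and in 1 with cKO above, and in 39 nuclear members toward higher and 27 toward lower values. Over all genes tested, 39.2% were apart with cKO above and 29.8% with cKO below. Under TMM and under median-of-ratios scaling 6 mitochondrial genes were lower, mt-Cytb and mt-Co2 having joined the list.

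**Figure D1:**
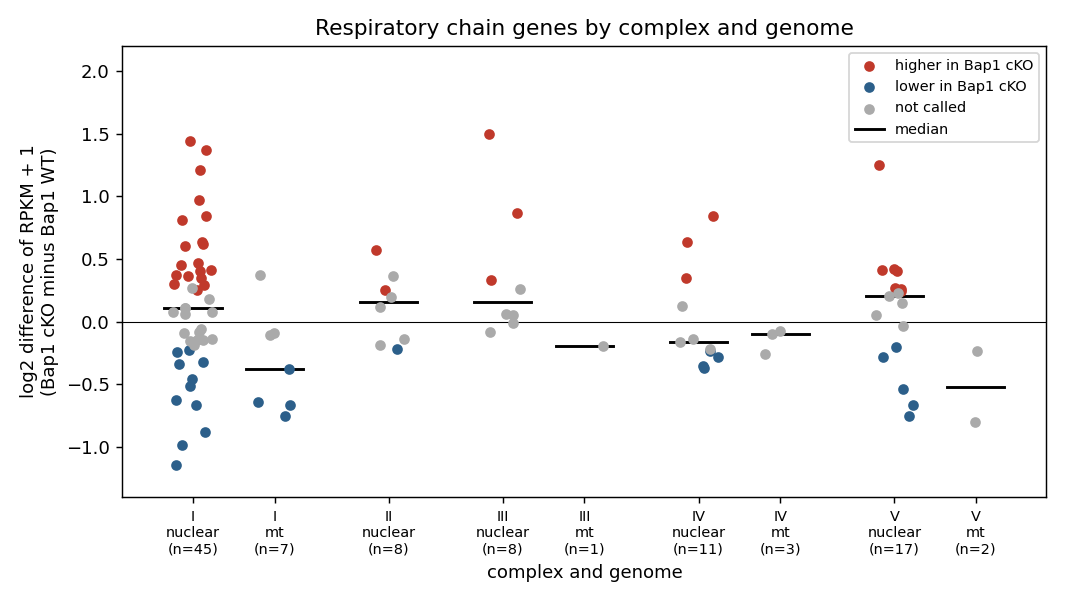
Log2 difference of RPKM + 1, Bap1 cKO minus Bap1 WT, for each tested gene by complex and genome, with the median as a bar and the horizontal line at no difference. Nuclear members spread on both sides of 0 in every complex, with Uqcrh highest at 1.498 and Ndufaf2 lowest at -1.15, and 12 of 13 mitochondrial genes lie below 0 (mt-Cytb lay above 0 under quantile normalization).

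Complex I, the NADH dehydrogenase, had 45 tested nuclear members, of which 19 were higher, 11 lower and 15 not called. Its 7 core subunits gave 3 higher and 0 lower, and its 30 accessory subunits 11 higher and 8 lower. The 8 assembly factors moved furthest, with 5 higher and 3 lower, a median absolute log2 difference of 0.98. They are not part of the finished complex, and each averaged less than 50 RPKM. Ndufaf8 had 49.9, 44.8 and 38.8 RPKM in cKO and 12.9, 15.4 and 19.3 RPKM in WT, so every cKO value lay above every WT value, a 2.8-fold difference (log2 1.44 ± 0.16, adjusted p = 0.00041). Ndufaf4 had 28.8, 25.2 and 34.3 RPKM in cKO and 11.0, 11.5 and 9.68 RPKM in WT, again without overlap (2.75-fold, log2 1.37 ± 0.13, adjusted p = 0.00022). Ndufaf2 went the other way, at 15.3, 14.2 and 26.4 RPKM in cKO and 38.4, 40.0 and 44.5 RPKM in WT (log2 -1.15 ± 0.23, adjusted p = 0.0046), with cKO replicate 3 nearest to WT. Ndufaf5 was 4.99, 6.68 and 8.37 RPKM in cKO and 13.4, 15 and 13.5 RPKM in WT (log2 -0.98 ± 0.17, adjusted p = 0.0027).

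Among the structural subunits of complex I, Ndufs5 rose most, to 242, 233 and 192 RPKM in cKO, against 89.5, 89.4 and 107 RPKM in WT (2.33-fold, log2 1.21 ± 0.12, adjusted p = 0.00023). Ndufa4 (ENSMUSG00000029632, chr6:11900292-11907497), named for complex I but now placed in complex IV, was the most abundant nuclear gene among those with Nduf symbols and fell to 416, 414 and 445 RPKM in cKO, against 770, 803 and 774 RPKM in WT. The WT mean was 1.84 times the cKO mean (log2 -0.88 ± 0.06, adjusted p = 4.8e-05). Its tissue-restricted relative Ndufa4l2 was at most 0.39 RPKM and was not tested. Ndufb4, the least abundant subunit of the complex, was 56.1, 67.8 and 53.5 RPKM in cKO and 60.2, 52.5 and 56.6 RPKM in WT, overlapping, with a log2 difference of 0.06 (limma, adjusted p = 0.65).

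Complex II, the succinate dehydrogenase, had 8 nuclear genes, with 2 higher, 1 lower and 5 not called. Sdhd, its most abundant member and a membrane anchor, rose to 124, 130 and 123 RPKM in cKO, against 81.9, 85.8 and 85.4 RPKM in WT (1.49-fold, log2 0.57 ± 0.06, adjusted p = 0.00032), without overlap. The assembly factors Sdhaf4 (33.9, 38.5 and 34.4 RPKM in cKO and 31.4, 29.3 and 28.5 RPKM in WT) and Sdhaf2 (31.2, 29.7 and 33.3 RPKM in cKO and 36.6, 38.3 and 35.1 RPKM in WT) passed with log2 differences of 0.25 and -0.22. The Sdhaf4 call was lost without any 1 WT library or cKO replicate 2 and under TMM and median-of-ratios scaling (adjusted p up to 0.19), and the Sdhaf2 call without any 1 library other than cKO replicate 3 (adjusted p up to 0.14). The other subunits Sdha, Sdhb and Sdhc were not called, although Sdhc was called lower without cKO replicate 3 and under TMM (adjusted p of 0.012 and 0.018).

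Complex III, the cytochrome bc1 complex, had 8 nuclear genes, 3 higher and none lower. Uqcrh (ENSMUSG00000063882, chr4:116066965-116075071), the hinge protein, showed the largest rise of all members, to 758, 704 and 593 RPKM in cKO, against 245, 245 and 232 RPKM in WT (2.85-fold, log2 1.498 ± 0.10, adjusted p = 4.9e-05). The lowest cKO value was well above the highest WT value. Uqcrc2, a core protein, had 109, 111 and 112 RPKM in cKO and 55.0, 65.0 and 60.7 RPKM in WT (1.84-fold, log2 0.87 ± 0.08, adjusted p = 0.00017). Uqcrfs1, the Rieske iron-sulfur protein, had 79.4, 99.2 and 75.6 RPKM in cKO and 63.3, 69.8 and 66.4 RPKM in WT (log2 0.34 ± 0.11, adjusted p = 0.040), a call lost under TMM and without any 1 library other than cKO replicate 3 (adjusted p up to 0.12). Uqcr11, the most abundant, was 627, 606 and 503 RPKM in cKO and 494, 438 and 512 RPKM in WT, with cKO replicate 3 within the WT range (log2 0.26, adjusted p = 0.070), and passed when that library was left out. The other 4 nuclear genes were not called. The mitochondrial mt-Cytb had 5182, 4547 and 5337 RPKM in cKO and 5655, 5991 and 5504 RPKM in WT, lower throughout but not called (log2 -0.19 ± 0.08, adjusted p = 0.073). It was called lower without cKO replicate 3, with array weights and, as given above, under TMM and median-of-ratios scaling.

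Complex IV, cytochrome c oxidase, had 11 tested nuclear genes, 3 higher and 4 lower with a median of -0.16. Cox7a2 rose to 165, 184 and 173 RPKM in cKO, against 92.9, 98.6 and 98.6 RPKM in WT (1.80-fold, log2 0.84 ± 0.07, adjusted p = 0.00011). Cox6b1 rose to 407, 419 and 427 RPKM in cKO, against 280, 263 and 264 RPKM in WT (1.55-fold, log2 0.64 ± 0.06, adjusted p = 0.00017). Cox5a (182, 244 and 212 RPKM in cKO and 179, 170 and 148 RPKM in WT) passed narrowly (log2 0.35 ± 0.13, adjusted p = 0.047) and lost its call under TMM and without any 1 WT library, cKO replicate 2 or cKO replicate 3 (adjusted p up to 0.15). On the other side, Cox8a had 440, 505 and 403 RPKM in cKO and 609, 514 and 619 RPKM in WT (log2 -0.37, adjusted p = 0.025). Cox5b had 243, 258 and 234 RPKM in cKO and 311, 294 and 336 RPKM in WT (log2 -0.35, adjusted p = 0.0059). Cox7c had 324, 339 and 343 RPKM in cKO and 421, 390 and 414 RPKM in WT (log2 -0.28, adjusted p = 0.0062). The Cox8a call was lost without WT replicate 1, WT replicate 3 or cKO replicate 1 (adjusted p up to 0.091), and the Cox7c and Cox8a calls under quantile normalization. Cox4i1, the most abundant, was 597, 776 and 575 RPKM in cKO and 743, 699 and 721 RPKM in WT, with cKO replicate 2 above the WT range and the other cKO values below it (log2 -0.16, adjusted p = 0.27), and was called lower without that library.

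The tissue isoforms of complex IV were close to absent in both groups. The heart and muscle forms Cox6a2, Cox7a1 and Cox8b, the lung form Cox4i2, the testis forms Cox6b2, Cox7b2 and Cox8c, and Ndufa4l2 were each at most 1.17 RPKM in any library and were not tested. The highest, Cox7a1, had 0.83, 1.17 and 0.24 RPKM in cKO and 0.36, 0 and 0.72 RPKM in WT. Their ubiquitous counterparts Cox4i1, Cox6a1, Cox6b1, Cox7a2 and Cox8a stood at 92.9 RPKM or more in every library. A second identifier under the symbol Atp5o was 0 throughout, which completes the 9 untested members, 4 of them at 0 in all libraries. Cox6a1 had 519, 562 and 408 RPKM in cKO and 607, 525 and 585 RPKM in WT (log2 -0.21, adjusted p = 0.19). Cox7a2l, a supercomplex factor, had 212, 207 and 190 RPKM in cKO and 186, 188 and 184 RPKM in WT (log2 0.13, adjusted p = 0.14), and was called higher without cKO replicate 3.

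Complex V, ATP synthase, had 17 tested nuclear genes, 7 higher, 5 lower and 5 not called. Atp5h (ENSMUSG00000034566, chr11:115415689-115419962), subunit d of the peripheral stalk, rose to 723, 722 and 647 RPKM in cKO, against 307, 289 and 279 RPKM in WT (2.39-fold, log2 1.25 ± 0.07, adjusted p = 2.9e-05). Atp5o and Atp5j, which encode OSCP and F6 of the same stalk, fell. Atp5o stood at 107, 130 and 114 RPKM in cKO and 201, 194 and 197 RPKM in WT (log2 -0.75 ± 0.09, adjusted p = 0.00042), and Atp5j at 129, 137 and 134 RPKM in cKO and 213, 217 and 207 RPKM in WT (log2 -0.66 ± 0.06, adjusted p = 0.00015). Members of this one stalk thus differed in opposite directions. Atp5b, the F1 beta subunit and the most abundant nuclear member, had 1231, 1477 and 1204 RPKM in cKO and 1098, 1089 and 1135 RPKM in WT, above WT in every cKO library but not called (log2 0.23, adjusted p = 0.060). It was called higher without cKO replicate 3, with array weights and with column or nuclear totals made equal. Atp5mpl, a small membrane protein, had 288, 310 and 324 RPKM in cKO and 223, 226 and 238 RPKM in WT (log2 0.42, adjusted p = 0.0019).

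The c-ring is encoded by 3 genes for the same mature protein. Atp5g1 had 385, 357 and 346 RPKM in cKO and 268, 266 and 283 RPKM in WT (log2 0.41, adjusted p = 0.0019). Atp5g2 had 480, 486 and 434 RPKM in cKO and 378, 377 and 405 RPKM in WT (log2 0.27, adjusted p = 0.014), a call lost without WT replicate 1 or 2 and under TMM and median-of-ratios scaling. Atp5g3 had 369, 389 and 376 RPKM in cKO and 541, 558 and 548 RPKM in WT (log2 -0.54 ± 0.05, adjusted p = 0.00024). The sum of the 3 was 1207 ± 44.1 RPKM in cKO and 1208 ± 25.5 RPKM in WT (SD, n = 3 each), a difference smaller than either SD, while Atp5g3 made up 31.3 ± 1.32% of it in cKO and 45.5 ± 1.11% in WT.

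Among the members outside the rule for named genes, and so chosen after their values were seen, the complex I accessory subunits called higher had log2 differences of up to 0.64 (Ndufa11) apart from Ndufs5, and Ndufc2 and Ndufa3 reached 0.62 and 0.60. The accessory subunits called lower beside Ndufa4 ranged down to -0.67 (Ndufb2) and -0.62 (Ndufa5), and Ndufs4, which completes the NADH-oxidizing arm, stood at -0.52. Ndufs4 had 67.8, 57.1 and 69.3 RPKM in cKO and 91.9, 98.1 and 88.2 RPKM in WT, without overlap (adjusted p = 0.0035). Of the core subunits, which carry the flavin and iron-sulfur clusters or bind ubiquinone, Ndufs3 (0.40), Ndufs7 (0.37) and Ndufv2 (0.29) were called higher. In the F1 head of ATP synthase, Atp5d was higher (0.40) while Atp5a1 (-0.20) and Atp5c1 (-0.28) were lower, and of these Atp5c1 kept its call whichever library was left out. The Ndufs7 and Atp5d calls were lost without any 1 library other than cKO replicate 3 (adjusted p up to 0.13 and 0.12) and under TMM. The Ndufv2 call was lost without WT replicate 1, WT replicate 3 or cKO replicate 1 and under TMM, the Atp5a1 call without WT replicate 1 or 3, and the Ndufa11 call without WT replicate 2.

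The mitochondrial genes of complex I held all 4 calls. mt-Nd1 had 2698, 2805 and 3107 RPKM in cKO and 3681, 3962 and 3553 RPKM in WT (log2 -0.38 ± 0.08, adjusted p = 0.0049). mt-Nd2 had 1450.4, 1140 and 1612 RPKM in cKO and 2086, 2408 and 1999 RPKM in WT (log2 -0.64 ± 0.14, adjusted p = 0.0073). In both, all cKO values lay below all WT values. mt-Nd6, the one gene transcribed from the opposite strand, had 50.7, 50.2 and 60.8 RPKM in cKO and 79.2, 98.4 and 80.1 RPKM in WT (log2 -0.66 ± 0.12, adjusted p = 0.0032). mt-Nd3 had 532, 508 and 797 RPKM in cKO and 1023, 1169.9 and 858 RPKM in WT (log2 -0.75 ± 0.20, adjusted p = 0.015). Its call was lost without WT replicate 1, WT replicate 2 or cKO replicate 1 (adjusted p up to 0.058), and mt-Nd1 lost its call under quantile normalization. mt-Nd6 shares 14 bases with mt-Nd5 on the other strand; the library kit keeps strand, but whether the counting used it is not given in the sources used here.

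Of the other mitochondrial complex I genes, mt-Nd4 had 1855, 1452 and 1924 RPKM in cKO and 1828, 2067 and 1696 RPKM in WT (log2 -0.10). mt-Nd5 had 865, 701 and 982 RPKM in cKO and 814, 1031 and 856 RPKM in WT (log2 -0.09). Both overlapped between the groups. mt-Nd4l had 1892, 2669 and 1970.1 RPKM in cKO and 1714, 1871 and 1429 RPKM in WT, the only one above WT throughout (log2 0.37 ± 0.16, adjusted p = 0.081).

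In complex IV, mt-Co1 had 7568, 6608 and 8140.0 RPKM in cKO and 7165, 8555 and 8103 RPKM in WT (log2 -0.10). mt-Co2 had 2044, 2364 and 2237 RPKM in cKO and 2484, 3028 and 2470.3 RPKM in WT (log2 -0.26, adjusted p = 0.061). mt-Co3 had 1086, 1823 and 1610.0 RPKM in cKO and 1535, 2208 and 1103 RPKM in WT (log2 -0.08). mt-Co1 and mt-Co3 overlapped between groups and mt-Co2 did not. In complex V, mt-Atp6 had 1202, 1555 and 1631 RPKM in cKO and 1521, 1897 and 1713 RPKM in WT (log2 -0.23, adjusted p = 0.18). mt-Atp8 had 20286, 6910.3 and 20955.5 RPKM in cKO and 23915, 30479 and 21382.5 RPKM in WT (log2 -0.80 ± 0.43, adjusted p = 0.15). In cKO replicate 2 it was far below the rest, and without that library the log2 difference of mt-Atp8 was -0.28. Between the highest and lowest library mt-Atp8 varied 4.41 times and mt-Nd3 2.30 times. The third gene shorter than 400 bases, mt-Nd4l, varied 1.87 times, within the range of the 10 longer genes (1.29 to 2.11 times).

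**Figure D2:**
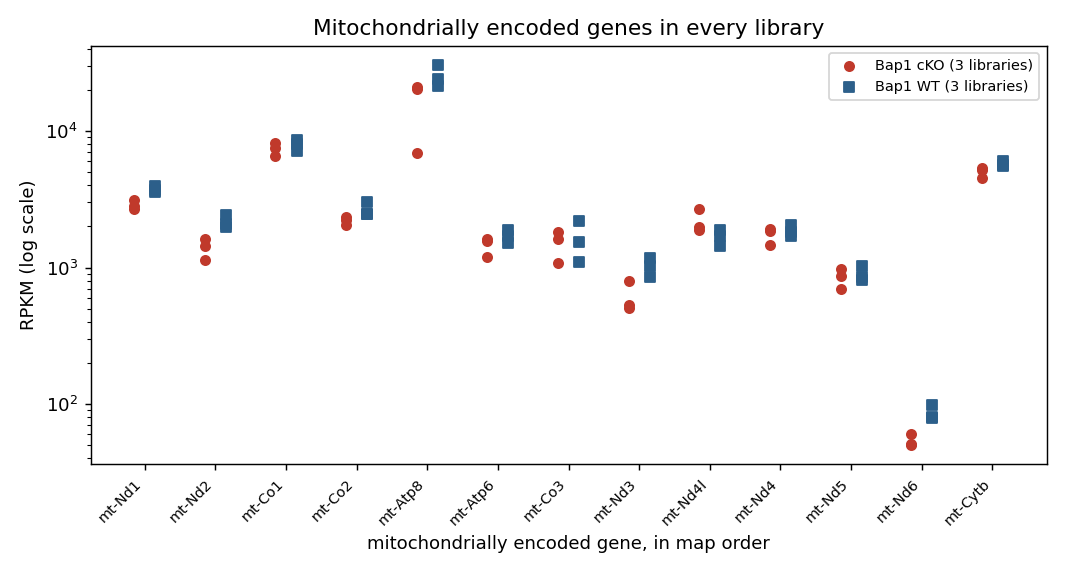
RPKM of each mitochondrially encoded gene in every library, log axis, in map order. Points of cKO lie left of those of WT. mt-Nd1, mt-Nd2, mt-Nd3 and mt-Nd6 are below WT without overlap, mt-Nd4l is above, and mt-Atp8 in cKO replicate 2 (6910.3 RPKM) lies far below the other libraries.

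Adding up RPKM over the members compares the 2 genomes, with reads assigned to the nuclear copies described below left out of the mitochondrial sums. Nuclear members made up 2.57 to 2.87% of the column total in cKO and 2.41 to 2.50% in WT, and mitochondrial members 4.88 to 7.41% in cKO and 7.34 to 9.25% in WT. The ratio of mitochondrial to nuclear sums was 2.56, 1.70 and 2.89 in cKO and 3.09, 3.84 and 2.93 in WT, all cKO values below all WT values. mt-Atp8 alone made up 20.9 to 43.4% of the mitochondrial sum in cKO and 42.1 to 47.1% in WT. Without mt-Atp8 the ratio was 1.45, 1.35 and 1.69 in cKO and 1.71, 2.04 and 1.70 in WT, the highest cKO value just under the lowest WT value. With the copies added, again without mt-Atp8, it was 2.74, 2.12 and 2.97 in cKO and 3.04, 3.44 and 3.04 in WT. The level of the ratio thus depends on how reads were shared between genes and copies. The log2 ratio of the groups was -0.46, -0.28 without mt-Atp8 and -0.27 without cKO replicate 2. By complex, III stood apart most, at 2.15, 1.86 and 2.53 in cKO and 3.31, 3.57 and 3.18 in WT, and at 3.13, 2.62 and 3.52 in cKO and 3.86, 4.18 and 3.67 in WT when Uqcrh was left out.

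**Figure D3:**
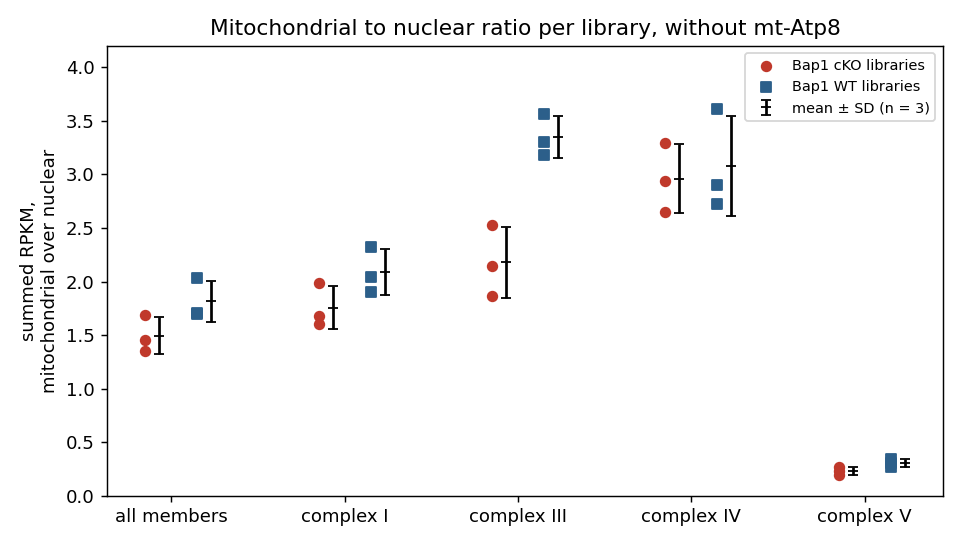
Mitochondrial over nuclear summed RPKM per library without mt-Atp8, for all members and for complexes I, III, IV and V, with mean ± SD (n = 3) beside each group. Complex III lies at 1.86 to 2.53 in cKO and 3.18 to 3.57 in WT, and the groups overlap in complexes I, IV and V.

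Of the mitochondrial genes, 7 have annotated copies in a cluster on chromosome 1 (chr1:24611535-24616197, GRCm38, minus strand). Of the 7 pairs, 6 were identical over the whole aligned stretch, so the reads cannot be assigned to one or the other from sequence alone, and how the authors' counting shared them is not given in the sources used here. The copies summed to 25728, 17000 and 24786 RPKM in cKO and 25383, 26367 and 26150 RPKM in WT, again lowest in cKO replicate 2. For mt-Atp6 the copy held up to 84.9% of the pair in cKO. With the length-scaled copy added, mt-Nd3 stayed lower, at 1840, 1735 and 2221 RPKM in cKO and 3241, 3464 and 2894 RPKM in WT (log2 -0.73 ± 0.11, limma adjusted p = 0.0016). The mt-Nd4l sum was 4163, 3469 and 4116 RPKM in cKO and 3744, 4008 and 3936 RPKM in WT, and its difference became 0.00 (adjusted p = 0.98). With the copies added, 0 of the 13 genes were higher and 4 lower, where 34.7% and 26.5% of all genes were called, and the median was -0.18.

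**Figure D4:**
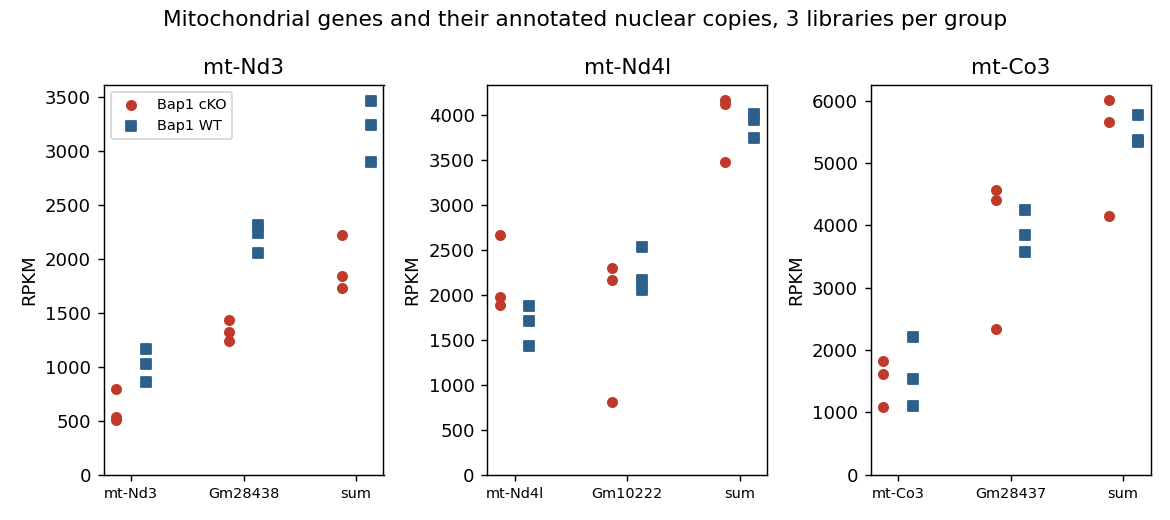
RPKM of mt-Nd3, mt-Nd4l and mt-Co3, of their nuclear copy, and of the length-scaled sum, in 3 cKO (circles) and 3 WT (squares) libraries. For mt-Nd3 gene, copy and sum are all below WT in cKO, and for mt-Nd4l the sum overlaps.

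The difference of a nuclear member went with that of its neighbours in the genome. Across the 89 tested members, the log2 difference correlated with the median difference of the other tested genes within 10 Mb on either side, at Pearson's r of 0.73 and Spearman's rho of 0.72. These values describe genes that share the same 6 libraries, and members lying near each other share neighbours. For the other nuclear genes the values were 0.27 and 0.35 (n = 12063), and 0.28 and 0.47 over those of mean at least 50 RPKM (n = 1980). The sign matched the window's in 47 of 55 called members (85.5%), and in 5120 of 7382 other called genes (69.4%). On chromosome 4, 5 of 6 tested members were higher (Ndufs5, Ndufaf4, Ndufaf6, Ndufb6 and Uqcrh), and on chromosomes 7 and 9 also 5 of 6. On chromosome 6 the 5 members were all negative and 3 lower, Ndufa4 among them, and on chromosome 16 both Atp5o and Atp5j were lower.

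After each gene was centred on its window, 20 nuclear members were higher and 18 lower, where 26.3% and 28.2% of all genes were called, and 26 had the same call as before. Centred by chromosome, the counts were 21 and 17, where 27.5% and 29.3% of all genes were called, and 31 had the same call. Uqcrh kept a difference of 0.53 after window centring, Atp5h of 0.33, Ndufs5 of 0.86 and Ndufa4 of -0.23 (limma, adjusted p of 0.00047, 0.0079, 0.00066 and 0.013). Ndufaf4 (0.29, adjusted p = 0.13), Atp5o (-0.10, adjusted p = 0.31) and Atp5j (0.02, adjusted p = 0.83) did not pass, nor did Cox6b1 (-0.10, adjusted p = 0.27) and Atp5mpl (-0.14, adjusted p = 0.11), and Atp5g1 became lower (-0.44, adjusted p = 0.0010). Window centring, the addition of the copies and the sums without mt-Atp8 were chosen after the data were seen.

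**Figure D5:**
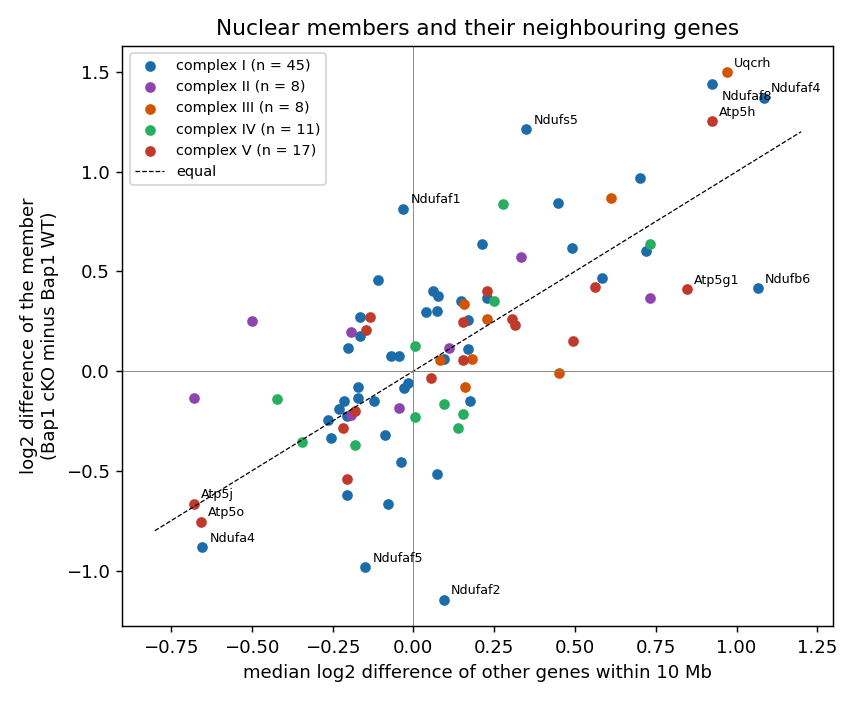
Log2 difference of each nuclear member (y axis) against the median log2 difference of the other genes within 10 Mb (x axis), by complex, with the dashed line of equality. Uqcrh, Ndufaf8, Ndufaf4 and Atp5h lie at the upper right, Atp5o, Atp5j and Ndufa4 at the lower left, and Ndufaf2 and Ndufs5 off the line.

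Promoters were examined for 3 motifs on both strands in the RefSeq windows (GRCm38.p6, 250 bases before to 50 after the start), which matched 80 of the 98 nuclear members. GCATGCGC, part of the site of NRF1, was found in 15% of these members, against 3.05% of 27025 genes and 6.43% of other tested coding genes (the letters were shortened after a longer form had been searched). AAGATGGC, bound by YY1, was found in 13.8%, against 3.19% and 5.71%. CCGGAAGT, bound by ETS factors including GABP, was found in 6.25%, against 4.31% and 10.02%. It was found in 3 of 31 members called higher, 1 of 18 called lower and 1 of 27 not called. None of the 3 motifs contains another, and a match describes the letters only. The promoters below are those of the 2 largest risers among the subunits and of Ndufa4, chosen after their values were seen, with ACTTCCGG, the reverse complement of the ETS motif, in capitals. Uqcrh lies at chr4:116075021-116075320, Atp5h at chr11:115419870-115420169 and Ndufa4 at chr6:11907401-11907700, all on the minus strand, and the Ndufa4 window held none of the 3 motifs. Nor did those of Ndufs5, the next riser among the subunits, and of Atp5o, which are not shown. A link between the ETS motif and the direction of change was not tested.
Uqcrh: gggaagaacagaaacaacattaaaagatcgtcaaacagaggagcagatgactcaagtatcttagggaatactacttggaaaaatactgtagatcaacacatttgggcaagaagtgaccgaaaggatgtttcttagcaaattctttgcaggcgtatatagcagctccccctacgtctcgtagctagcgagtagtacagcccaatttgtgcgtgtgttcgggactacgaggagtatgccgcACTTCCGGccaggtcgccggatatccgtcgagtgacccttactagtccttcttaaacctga
Atp5h: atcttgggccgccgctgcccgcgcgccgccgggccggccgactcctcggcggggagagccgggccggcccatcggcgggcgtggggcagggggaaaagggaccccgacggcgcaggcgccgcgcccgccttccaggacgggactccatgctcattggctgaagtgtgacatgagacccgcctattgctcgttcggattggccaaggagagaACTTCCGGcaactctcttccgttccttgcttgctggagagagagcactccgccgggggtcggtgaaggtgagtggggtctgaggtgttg
Ndufa4: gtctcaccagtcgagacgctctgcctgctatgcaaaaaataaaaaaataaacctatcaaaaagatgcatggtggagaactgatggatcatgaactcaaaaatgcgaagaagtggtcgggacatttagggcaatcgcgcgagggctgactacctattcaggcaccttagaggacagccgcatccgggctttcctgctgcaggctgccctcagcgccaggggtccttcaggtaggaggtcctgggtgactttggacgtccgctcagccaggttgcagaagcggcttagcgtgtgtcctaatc

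Other genes of the pathway moved in both directions as well. For the list counts here and in the next paragraph, the shares over all genes tested were 34.7% higher and 26.5% lower. Of 18 electron carrier and ubiquinone synthesis genes 7 were higher and 3 lower (median 0.30), with the smallest p in the ubiquinone synthesis gene Coq8b (15.4, 14.9 and 11.0 RPKM in cKO and 4.87, 5.41 and 4.27 RPKM in WT) and in Coq10a, 2.16-fold higher. Of 9 complex I assembly genes outside the rule 6 were higher and 0 lower (median 0.61), with Dmac1 2.26-fold and Tmem186 2.02-fold higher. Of 23 tested complex IV assembly genes 8 were higher and 3 lower (median 0.18). Coa3, an assembly factor of complex IV, had 112, 113 and 96.1 RPKM in cKO and 14.98, 16.2 and 13.7 RPKM in WT, 7.15-fold higher (log2 2.76 ± 0.10, adjusted p = 5e-06), and Taco1, which activates translation of mt-Co1, was 1.96-fold higher. In the complex II and III assembly list of 6, Uqcc3 rose 1.71-fold and Uqcc2 was lower (log2 -0.40). Of 5 genes listed for complex V, the assembly factors Atpaf1 (2.53-fold) and Atpaf2 (1.72-fold) were higher. Tmem70, Usmg5 and Atpif1 were lower, but Usmg5 encodes a subunit and Atpif1 an inhibitor of ATP synthase, not assembly factors.

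Of 18 genes of mitochondrial transcription and replication, 10 were higher and 1 lower, with a median log2 difference of 0.62. Twnk, the helicase, rose 1.73-fold and Rnaseh1 1.75-fold. Of the genes named from these lists, Rnaseh1, Usmg5 and Tmem70 lost their calls when centred by chromosome. Their limma adjusted p values were then 0.13, 0.090 and 0.051. The median of neighbours within 10 Mb was often closer to the gene. It was 1.01 for Taco1 (log2 0.88), 0.97 for Dmac1 (1.14) and 0.97 for Atpaf1 (1.23). In the other direction, it was 0.92 for Coa3 (2.76) and -0.13 for Tmem186 (0.91). Calls of the list genes after window centring are not given here. Of 19 RNA processing genes 5 were higher and 2 lower, with Fastk 2.06-fold and Grsf1 1.43-fold higher. The mitoribosomal list of 78 gave 25 higher and 16 lower (median 0.07), and Mrps6 fell to 18.6, 19.2 and 19.4 RPKM in cKO, against 95.2, 89.0 and 93.0 RPKM in WT, while Mrpl50 was 2.77-fold higher. The citric acid cycle list of 17 gave 4 in each direction, with Idh2 at 15.4, 18.4 and 23.9 RPKM in cKO and 77.7, 78.7 and 77.9 RPKM in WT, and Suclg2 1.66-fold higher. Of 10 tested biogenesis regulators 2 were higher and 4 lower, with Myc 3.12-fold higher in cKO and Nfe2l2 2.13-fold higher in WT.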

How the data were processed

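RNA of 6 libraries was sequenced by the authors (paired 151-base reads, stranded polyA kit, per the labels). GRCm38, RSEM 1.3.1, STAR 2.7.1a and cutadapt 2.8 are listed, without roles, per the submitters' processing notes. The authors deposited RPKM, that is per kilobase of transcript and scaled to depth, and read counts are not used here; the counting settings and annotation are not given in the sources used here. Symbols, biotypes and coordinates came from GENCODE M21 (GRCm38), which covered 55144 of 55471 identifiers. RPKM plus a pseudocount of 1 was log2-transformed, and genes averaging 1 RPKM or more were tested with limma 3.58.1 (trend, R 4.3.3) for genotype over all 6 libraries, 2-sided, with Benjamini-Hochberg adjustment and a threshold of 0.05. The procedure was tested on simulated data. Depths were estimated from value steps (82.7 to 93.1% within 0.2 of whole fragments). Sequences came from GENCODE and RefSeq.

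The members and lists were chosen with earlier results of these data known. Named genes are Bap1, all mitochondrial members, the 3 largest changes per complex in each direction, the most abundant nuclear member per complex, isoform groups and the 2 smallest p per list. Alternatives were pseudocounts, minimum levels, scalings, variance priors, sample weights, chromosome and window centring, added copies, a replicate block and leaving out each library. Other tools were Python 3.11.15, pandas 2.3.3 and matplotlib 3.10.9.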

Additional observations from a re-analysis of the deposited data

How the results depend on the processing

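The nuclear median log2 difference was 0.114 as reported, 0.021 under TMM, 0.0019 under median of ratios, 0.150 under quantile normalization, 0.148 with equal column totals and 0.122 with equal nuclear totals, and it was 0.010 centred by chromosome and 0.0082 centred on windows. The count of nuclear members higher in cKO was 34 as reported, 22 under median of ratios, 21 centred by chromosome and 20 on windows; the cause was not tested. Leaving out 1 library in turn, 24 to 38 nuclear members were higher and 14 (without WT replicate 1) to 23 lower, with a nuclear median of 0.066 (without cKO replicate 2) to 0.128. In the same fits 3 to 5 mitochondrial genes were lower, 0 were higher, and the mitochondrial median was -0.311 to -0.155. The log2 ratio of the mitochondrial to nuclear sum was -0.464, with a range of -0.625 to -0.271. Deviations of same-numbered cKO and WT libraries correlated at -0.017, 0.050 and -0.019. These values show no strong shared pattern, but with n = 3 per group they cannot exclude a pairing. With the replicate block, 26 nuclear members were higher and 14 lower. In that fit 1 mitochondrial gene (mt-Nd4l, limma adjusted p = 0.029) was higher and 5 lower. The shares of all genes called with the block or with 1 library left out are not given here. The member counts of those fits therefore cannot be read against them. Centring gave the opposite sign to several members called with or without it. By chromosome, these were Ndufa2 (0.00028), Ndufa3 (-0.033), Ndufab1 (-0.168), Ndufb6 (-0.033), Ndufc2 (-0.019), Sdhaf2 (0.019), Uqcrq (-0.36), Cox6b1 (-0.0017), Atp5a1 (0.027), Atp5g1 (-0.0056), Atp5l (-0.084) and Atp5mpl (-0.147). On windows they were Ndufa3 (-0.116), Ndufab1 (-0.115), Ndufb6 (-0.65), Ndufb8 (0.018), Sdhaf3 (0.54), Cox6b1 (-0.098), Cox6c (0.28), Atp5g1 (-0.44), Atp5j (0.016), Atp5l (-0.046) and Atp5mpl (-0.14). Values of a few RPKM, as in some assembly factors, rest on fewer fragments and are less precise.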

Other observations

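The mitochondrial ribosomal RNA genes, outside the members and chosen after their values were seen, did not follow the protein-coding ones. The libraries were made with a polyA kit, so these values need not reflect the level of ribosomal RNA in the cells. mt-Rnr2, the large ribosomal RNA, had 542, 624 and 595 RPKM in cKO and 388, 461 and 372 RPKM in WT, all cKO values above all WT values (log2 0.53 ± 0.10, limma adjusted p = 0.0038). mt-Rnr1 had 156, 193 and 144 RPKM in cKO and 127, 156 and 112 RPKM in WT, with overlap (log2 0.32 ± 0.16, adjusted p = 0.12).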
